A study of Mus musculus with 2 samples.

Results

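Mir150, Mir342, Mir155, Mir146 and Mir146b, microRNA (miRNA) genes of lymphocytes, were followed in the newborn mouse thymus. Mir150 and Mir342 are known from mature lymphocytes, and Mir155, Mir146 and Mir146b from immune activation and the transcription factor NF-kB. The 5 genes were chosen by name for these roles, from 1973 miRNA gene identifiers in the count tables. Of the 5, 4 had at least 10 counts in both libraries, the level taken here as detected, as had 294 genes in all. Mir146b did not reach it.

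The libraries were made from RNA shorter than 30 nucleotides out of total RNA of the thymus of B6NCrl mice at postnatal day 0. Each pup gave both lobes and 1 library. Replicate 1 was pup 2 and replicate 2 was pup 3 of 1 pregnancy, per the labels, which give both the same donor identifier and no sex. Both belong to 1 group with no treatment and no altered allele named, so there is no contrast between conditions, and a difference between the libraries cannot be told apart from one of pup, dissection or library preparation. Whole tissue was used, so fewer cells of a type and less miRNA per cell cannot be told apart either.

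A miRNA is cut from a hairpin transcript and guides a silencing complex to messenger RNAs, which it recognises mainly through its seed, bases 2 to 8. As background, miR-150 is low in lymphocyte progenitors, accumulates as T and B cells mature and represses Myb, a transcription factor of progenitors. miR-155 is cut from the noncoding transcript Mir155hg, which is induced when lymphocytes and myeloid cells are activated. The Mir146 gene encodes miR-146a, which NF-kB induces and which represses Traf6 and Irak1, signalling proteins upstream of NF-kB. miR-146b is its relative from another chromosome.

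The following mature sequences show what sets the genes apart and what joins Mir146 to Mir146b. They are RefSeq sequences of build GRCm38.p6, written 5′ to 3′ with the seed in capitals. The table held 9 mature sequences over the 5 genes. The tables of counts give 1 value per gene, so the arm of the hairpin behind a count is not known. Mir150 also encodes miR-150-5p, which was missing from these RefSeq sequences. The seed printed for Mir150 is therefore that of miR-150-3p only.
miR-150-3p: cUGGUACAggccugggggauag
miR-342-3p: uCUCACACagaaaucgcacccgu
miR-155-5p: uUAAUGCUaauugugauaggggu
miR-146a-5p: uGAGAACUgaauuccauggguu
miR-146b-5p: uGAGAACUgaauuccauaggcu

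The seed of miR-146a-5p and miR-146b-5p is the same, and in the table of 1738 mature miRNAs no gene outside this pair carried it. None of the 7 other sequences of the 5 genes in the table shared its seed with another gene, against 32.0% of all mature miRNAs in the table that did, and the seed of miR-150-5p was not analysed here. Counted from 1 at the 5′ end, miR-146a-5p and miR-146b-5p were identical at 20 of 22 positions and differed by G18A and U21C, miR-146a given first. Their first 17 bases were therefore the same, and a read that ends within them matches both genes. The 2 hairpins shared an unbroken stretch of 21 bases, of which 4 precede the mature sequence. Mir150, Mir342 and Mir155 shared no stretch of 20 bases with another annotated miRNA locus, whereas 22.1% of the detected genes did. For Mir146 and Mir146b the assignment of reads is less certain, because reads that fit several places were left off the genes.

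The genes lie on 5 chromosomes, at coordinates of build GRCm38. Mir150 (ENSMUSG00000065495.1, chromosome 7, 45121757 to 45121821, plus strand) overlapped no other annotated gene, and the nearest, the noncoding Gm45552, began 96 bases away on the same strand. Mir342 (ENSMUSG00000065436.1, chromosome 12, 108658620 to 108658718) sits on the plus strand within an intron of Evl, a regulator of actin filaments read in the same direction. Mir155 (ENSMUSG00000065397.1, chromosome 16, 84714140 to 84714204) sits on the plus strand within an exon of its host Mir155hg. Mir146 (ENSMUSG00000065601.1, chromosome 11, 43374397 to 43374461, minus strand) overlapped no annotated gene, with the noncoding Gm12148 as the nearest at 11021 bases. Mir146b (ENSMUSG00000070127.2, chromosome 19, 46342762 to 46342870) sits on the plus strand within an intron of Mfsd13a. Reads kept to the strand of these genes. In both libraries together, Mir342, Mir155, Mir146 and Mir146b had 0 counts on the opposite strand and Mir150 had 1, which left 99.99% of its counts on its own strand (lower 95% Clopper-Pearson bound 99.93).

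The tables assigned 2734133 counts to the strand of a miRNA gene in replicate 1 and 1289151 in replicate 2, and levels are counts per 1000000 of these (CPM). A count of 0 would allow up to 3 counts, or 1.10 CPM in replicate 1 and 2.33 in replicate 2. Reads that mapped to several places made up 56.3% and 57.5% of all reads and were not counted on genes. A chi-square of 27452 with 683 degrees of freedom between the 2 sets of counts exceeded sampling noise, so neither library is a copy of the other. A difference in library preparation could also exceed that noise, so this does not show that the RNA came from different pups. Markers of the organ were present. The 6 miR-181 genes, of immature thymocytes, summed to 62899 and 57404 CPM in replicates 1 and 2, and 6 epithelial genes to 36005 and 37225. Intervals cover counting error only, since no molecular identifiers are described, and errors after ± are SD over the 2 libraries (n = 2).

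The 5 genes together held 1.00% of the gene-strand counts in replicate 1 (95% Clopper-Pearson interval 0.992 to 1.015) and 0.937% in replicate 2 (0.920 to 0.953). These genes were thus a minor part of the counts assigned to miRNA genes. Their part of all small RNA is not known, because most reads were not assigned. The mature sequences above are 22 or 23 bases long, so a read covers about the same length in each gene, and CPM was compared between genes without division by length.

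Mir150 had 5067 counts in replicate 1 and 3007 in replicate 2. That equalled a level of 1853 CPM (1803 to 1905) and 2333 CPM (2250 to 2417), with a mean of 2093 ± 339. Replicate 2 was the higher, and the intervals did not overlap.

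Mir342 had 8947 and 3950 counts in replicates 1 and 2. Its level was 3272 CPM (3205 to 3341) and 3064 CPM (2969 to 3161), with a mean of 3168 ± 147. Its SD was 4.65% of the mean, the smallest of the 5 genes, and replicate 2 was slightly the lower.

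Mir155 was the most abundant of the 5, with 10367 and 4170 counts in replicates 1 and 2. Its level was 3792 CPM (3719 to 3865) and 3235 CPM (3137 to 3334), with a mean of 3513 ± 394. It was lower in replicate 2.

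Mir146 had 3045 and 942 counts in replicates 1 and 2. Its level was 1114 CPM (1075 to 1154) and 731 CPM (685 to 779), with a mean of 922 ± 271. The SD was 29.4% of the mean, against 16.2% for Mir150 and 11.2% for Mir155.

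Mir146b had 5 counts in each library, which equalled 1.83 CPM (0.594 to 4.27) in replicate 1 and 3.88 CPM (1.26 to 9.05) in replicate 2. Both are above the limit of 3 counts, and their intervals overlap widely. Mir146 thus exceeded Mir146b, the gene with the same seed, by 609 times in replicate 1 (exact 95% interval 261 to 1877) and by 188 times in replicate 2 (80.4 to 582). Nearly all counts of these 2 genes came from Mir146, although the arm behind them, and so their seed, is not known.

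**Figure D1:**
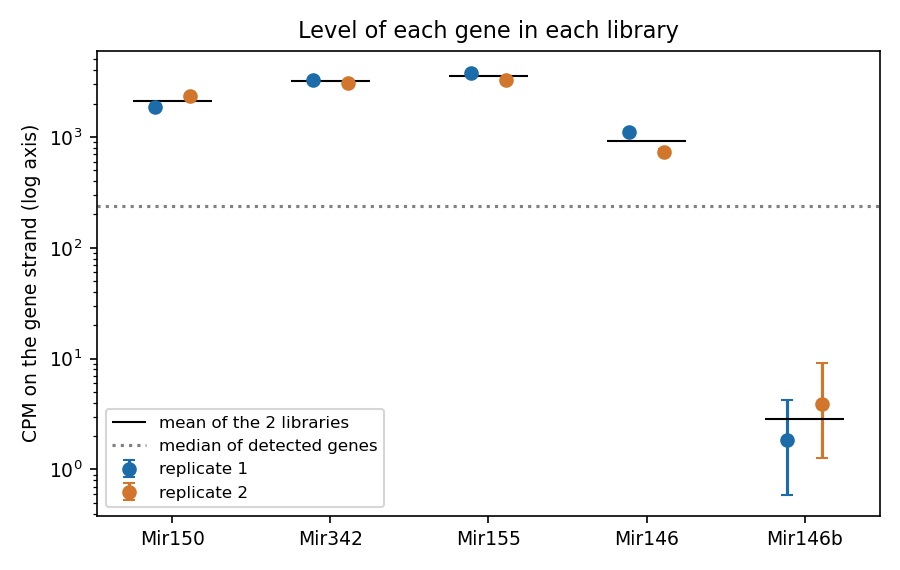
Level of each gene on the gene strand in counts per 1000000 assigned counts (CPM, log axis) in replicate 1 and replicate 2, with 95% Clopper-Pearson intervals, which are smaller than the points for 4 genes; black lines are means of the 2 libraries and the dotted line is the median of the 294 detected genes, 239 CPM. Mir150, Mir342, Mir155 and Mir146 lie above that median in both libraries, and Mir146b lies far below it at 1.83 and 3.88 CPM.

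Ordered by mean level, Mir155 came first, then Mir342, Mir150, Mir146 and Mir146b, and the order was the same in each library. The ranges of Mir155 (3235 to 3792 CPM) and Mir342 (3064 to 3272 CPM) overlapped over the 2 libraries, although Mir155 was the higher in each. Within replicates 1 and 2, there were 0.863 and 0.947 Mir342 counts per Mir155 count. Whether this order holds in other pups was not tested. The ranges of the other neighbours in this order did not overlap. Among the 294 detected genes, Mir155 ranked 57 by mean CPM, Mir342 ranked 61, Mir150 ranked 78 and Mir146 ranked 100. Their means were 14.7, 13.2, 8.75 and 3.86 times the median of detected genes. The likeness of other genes was measured as the distance between levels on the log2(CPM + 1) scale over the 2 libraries. By this measure, the nearest gene outside the 5 was Mir203 for Mir155 (distance 0.09), Mir30a for Mir342 (0.04), Mir92-2 for Mir150 (0.10) and Mir223 for Mir146 (0.30). With 2 libraries this says only that the levels were alike. Mir92-2 shares 20 bases with Mir92-1, and its level is uncertain for that reason.

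Replicate 2 was set against replicate 1 to ask how far the genes vary between littermates. Mir150 was higher in replicate 2, whereas Mir342, Mir155 and Mir146 were lower. The largest difference was that of Mir146, the feedback regulator of NF-kB signalling, which was 1.60-fold higher in replicate 1. Mir150, the marker of maturation, was 1.20-fold higher in replicate 2. A two-sided exact binomial test, given library sizes scaled by TMM (a trimmed mean of log ratios), was run on all 294 detected genes with Benjamini-Hochberg adjustment at 0.05.

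Ratios are given as replicate 2 over replicate 1. For Mir150 the log2 ratio was 0.27, with an exact 95% interval from 0.20 to 0.33 and an adjusted exact binomial p of 1.28e-14. Mir342 had a log2 ratio of -0.16 (-0.22 to -0.11, adjusted exact binomial p = 1.90e-08). Mir155 had a log2 ratio of -0.30 (-0.35 to -0.24, adjusted exact binomial p = 8.80e-29). These 3 differences were of a size common in these libraries, where the median absolute log2 ratio was 0.21. Mir146 had a log2 ratio of -0.67 (-0.78 to -0.57, adjusted exact binomial p = 1.10e-37). It ranked 24 of 294 by the size of its log2 ratio. Those 294 include genes with few counts, whose ratios spread widely by counting error. Among genes with a higher mean CPM than Mir146, only Mir411 had a log2 ratio of larger size, at 0.76. Mir146b, below the detection level and outside this test, had a ratio of replicate 2 over replicate 1 of 2.03 with a log2 interval from -1.10 to 3.14, so no difference could be seen at 5 counts.

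The test called 1 of the 4 genes higher and 3 lower in replicate 2. Of all detected genes, 43.5% were called in either direction, 20.1% higher and 23.5% lower. With a filter of at least 100 counts in both libraries, which the 4 genes pass, 60.2% of the genes tested were called. Scaled to total counts in place of TMM, the calls over all genes were 72 higher and 52 lower, against 59 and 69 with TMM, and the 4 genes kept their directions and their calls. Mir342 was nearer to 0 under that scaling, with a log2 ratio of -0.09 (adjusted exact binomial p = 0.00161). The median log2 ratio was -0.23 over the 4 genes and -0.03 over all 294. The test compares 2 libraries by counting error and has no replicate check. A negative binomial test in edgeR allows for a coefficient of variation between the libraries, 0.154 as estimated from all genes. This variation came from the same 2 libraries that the test compared, so few calls were likely from the outset. A lack of calls therefore does not show that the libraries were alike. The edgeR test called 0.34% of the detected genes and none of the 4. Its adjusted p was 0.955 for Mir146 and 1 for the others, and its unadjusted p for Mir146 was 0.0359, while 15 genes passed unadjusted at 0.05.

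**Figure D2:**
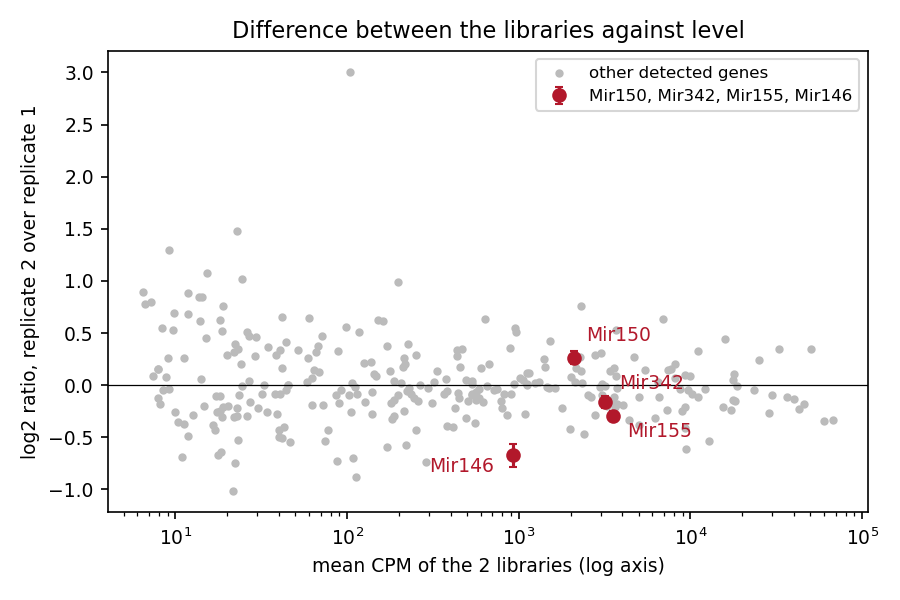
The log2 ratio of replicate 2 over replicate 1, scaled by TMM, against the mean CPM of the 2 libraries (log axis) for the 294 detected genes; red points with exact 95% intervals are Mir150, Mir342, Mir155 and Mir146, and grey points are the other genes. Mir150 lies above 0 at 0.27, Mir342 and Mir155 lie below at -0.16 and -0.30, and Mir146 lies lowest of the 4 at -0.67.

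Ratios inside a library need no scaling between libraries. They come from the same counts as the log2 ratios, so they are no separate check of the directions. A ratio also cannot show which of its genes differed. Mir155 exceeded Mir150 by 2.05 times in replicate 1 (exact 95% interval 1.98 to 2.12) and by 1.39 times in replicate 2 (1.32 to 1.45). Mir150 exceeded Mir146 by 1.66 times in replicate 1 (1.59 to 1.74) and by 3.19 times in replicate 2 (2.97 to 3.44). This was the ratio that differed most between the libraries among the 4 detected genes, by 1.92 times. Mir342 and Mir155 held closest together, at 0.863 Mir342 counts per Mir155 count in replicate 1 (0.839 to 0.888) and 0.947 in replicate 2 (0.907 to 0.990). Mir155 exceeded Mir146, the other abundant gene of the activation group, by 3.40 times in replicate 1 and 4.43 times in replicate 2.

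Of the counts of the 5 genes, Mir150 supplied 18.5% in replicate 1 (95% Clopper-Pearson interval 18.0 to 18.9) and 24.9% in replicate 2 (24.1 to 25.7). Mir342 supplied 32.6% and 32.7% in replicates 1 and 2, so its share was nearly level. Mir155 supplied 37.8% and 34.5%. Mir146 supplied 11.1% in replicate 1 (10.7 to 11.5) and 7.80% in replicate 2 (7.33 to 8.29). Mir146b supplied 0.0182% and 0.0414%.

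By role, Mir150 and Mir342 summed to 5126 CPM in replicate 1 and 5397 CPM in replicate 2, and Mir155, Mir146 and Mir146b to 4907 and 3969 CPM. The activation group thus had 0.957 counts for each count of the maturation pair in replicate 1 (exact 95% interval 0.935 to 0.980) and 0.736 in replicate 2 (0.709 to 0.763), a mean of 0.846 ± 0.157. The maturation pair held the larger part in both libraries. In the pair, Mir150 was higher and Mir342 lower in replicate 2. In the activation group, Mir155 and Mir146, its 2 detected genes, were both lower.

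**Figure D3:**
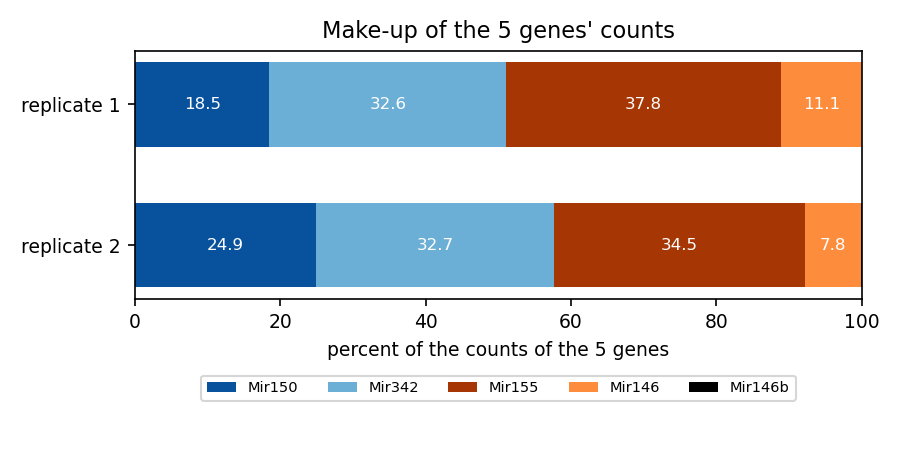
Percent of the counts of the 5 genes that each supplied in replicate 1 and replicate 2, with the values written in the bars; blue is the maturation pair and brown to orange the activation group, and Mir146b at 0.0182% and 0.0414% is too thin to see. The part of Mir150 is larger in replicate 2 and that of Mir146 smaller, while Mir342 takes nearly the same part in both.

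Other miRNAs known to be induced in activated immune cells were listed beside Mir155 and Mir146. Of the 13 listed genes, 12 were in the tables and 10 were detected. The exact binomial test called 1 of these higher in replicate 2 and 4 lower, and 5 did not pass, near the 43.5% called among all detected genes. Their median log2 ratio was -0.04, and edgeR called none of them. Mir21a, a miRNA induced in many activated cells, was far above the 5 genes, with 41277 CPM in replicate 1 and 39315 in replicate 2. Mir182, which IL-2 induces in T cells, had 4204 and 3861 CPM, and Mir210, a target of hypoxia signalling, had 1161 and 1002 CPM. These 3 genes and Mir222 were the 4 that were lower in replicate 2, with log2 ratios of -0.14, -0.19, -0.28 and -0.33 in the order named. Mir31 was the gene that was higher, at 608 and 735 CPM. Mir9-2 had 0 counts in both libraries, Mir9-3 had 1 in each, and both share sequence with other loci.

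The miRNAs of immature thymocytes had the larger sum, most of it from Mir181a-1 at 36632 CPM ± 832. Mir181a-2 (198 ± 97.7) and Mir181b-1 (109 ± 33.3) were below each of the 4 detected genes, and their counts are uncertain because other loci share their sequence, as is that of Mir181a-1. The miR-181 genes together had 6.27 counts for each count of the 5 genes in replicate 1 (exact 95% interval 6.19 to 6.35) and 6.13 in replicate 2 (6.01 to 6.25). For Mir181c and Mir181d, the miR-181 genes that share no 20 bases with another locus, the ratio was 1.41 (1.39 to 1.44) and 1.42 (1.39 to 1.45). Set against Mir150 alone, Mir181c and Mir181d had 7.65 counts per Mir150 count in replicate 1 (7.43 to 7.88) and 5.70 in replicate 2 (5.48 to 5.93). The intervals of the 2 libraries overlapped for the 5 genes together and did not for Mir150.

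Myeloid cells also make miR-155 and miR-146a, so Mir223, the miRNA of granulocytes, was set beside them. Mir223 was at 919 CPM in replicate 1 and at 787 in replicate 2. Its log2 ratio of -0.29 (-0.40 to -0.18, adjusted exact binomial p = 1.98e-07) was close to that of Mir155. Mir155 had 4.13 counts per Mir223 count in replicate 1 (exact 95% interval 3.95 to 4.31) and 4.11 in replicate 2 (3.84 to 4.40), and these intervals overlap. So did those of Mir342, with 3.56 counts per Mir223 count in replicate 1 (3.41 to 3.72) and 3.89 in replicate 2 (3.63 to 4.17). The overlap was thus not particular to Mir155. Mir146 had 1.21 counts per Mir223 count in replicate 1 (1.15 to 1.28) and 0.928 in replicate 2 (0.848 to 1.015). For Mir150 the ratio was 2.02 (1.92 to 2.12) and 2.96 (2.76 to 3.18). The interval of the log2 ratio of Mir146, -0.78 to -0.57, lay below that of Mir223. It lay within that of Mir511, the other myeloid gene, which had 58 and 18 counts in replicates 1 and 2 and a log2 ratio of -0.67 (-1.52 to 0.11) that did not pass.

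**Figure D4:**
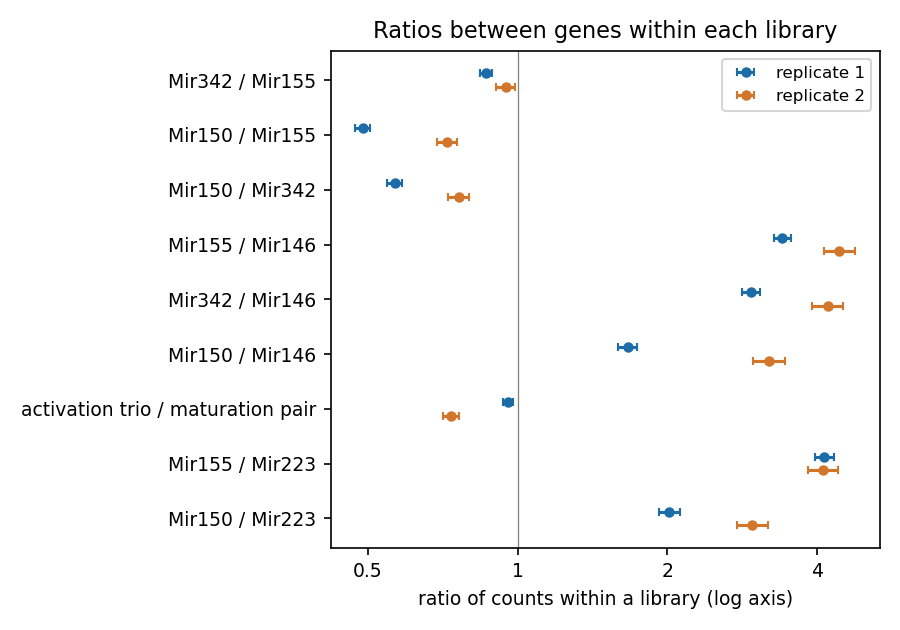
Ratio of the counts of 2 genes or groups within replicate 1 and within replicate 2 (log axis), with exact 95% intervals; the activation trio is Mir155, Mir146 and Mir146b, the maturation pair is Mir150 and Mir342, and Mir223 is a myeloid miRNA. Ratios with Mir150 or Mir146 are apart between the libraries, whereas the ratio of Mir155 to Mir223 is 4.13 and 4.11. The ratio of Mir342 to Mir223, whose intervals also overlap, is not drawn.

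Markers of other cells were also called by the exact binomial test, which called 43.5% of all detected genes in either direction. The negative binomial test of edgeR called only Mir208b among them. Of the 6 epithelial genes, all detected, 3 were called higher in replicate 2, 1 lower, and 2 did not pass. The 2 myeloid genes, both detected, summed to 940 CPM in replicate 1 and 801 in replicate 2, and 1 of them, Mir223, was called lower. The 3 erythroid genes in the tables summed to 233 and 175 CPM, and of the 2 detected 1 was called lower (Mir451a) and 1, Mir144, did not pass. The 5 mesenchymal genes summed to 2744 and 3332 CPM, and of the 4 detected 1 was called higher (Mir214) and 3 did not pass. The endothelial Mir126a had 28049 and 37298 CPM and was called higher. The 7 striated muscle genes in the tables, of which Mir1a-1 and Mir133a-2 were at 0, summed to 488 and 745 CPM, and of the 3 detected 2 were called higher (Mir208b and Mir499) and 1, Mir206, did not pass. These sums therefore rest on few genes. Their part in the differences of the 5 genes was not tested.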

How the data were processed

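The authors deposited 1 table of raw read counts per miRNA gene and library, made on mm10 with GENCODE annotation M4, per the text files deposited with the tables. The aligner is, like the counter, not given in the sources used here. The count on the strand of the gene was used, and the sum of both strands was an alternative. Rows of unmapped (10.6% and 9.17% of reads), multimapping and unassigned reads (2.99% and 2.57%) stayed out of library sizes. Symbols and positions came from GENCODE M21, a later release, which matched 1894 of 1973 identifiers, while 79 unmatched identifiers were at 0 on that strand. Sequences are from RefSeq.

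CPM, shares and ratios within a library, and exact binomial tests over all detected genes, were computed from the counts with scipy 1.17.1 (Python 3.11.15) and TMM of edgeR 4.0.16 (R 4.3.3). The binomial test was tested on simulated data with counting error only, as the test itself assumes. That run therefore says nothing about spread between libraries beyond counting error. Alternatives were DESeq2 1.42.0 size factors, total counts, filters of 1 or 100 counts, the most abundant gene left out, the negative binomial test of edgeR, a pseudocount of 0.5 CPM in place of 1, and each library alone. The genes named are the 5 members, the nearest gene in level, genes with the same seed and the listed genes with the highest levels. A few further genes were named after their values were seen, among them Mir411, which is in no list. The members and lists were chosen with earlier results of these data known.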

Additional observations from a re-analysis of the deposited data

How the results depend on the processing

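Mir150, Mir342, Mir155 and Mir146 kept their direction and their call by the exact binomial test under 7 alternatives of column, scaling, filter or gene set. The log2 ratios ran from 0.25 to 0.33 for Mir150, from -0.18 to -0.09 for Mir342, from -0.31 to -0.23 for Mir155 and from -0.69 to -0.61 for Mir146, and the highest adjusted exact binomial p was 0.00161, for Mir342. In the negative binomial test of edgeR, which counts spread between libraries beyond counting error, 0 of the 4 genes were called. Over all genes, 1 was called against 128 by the binomial test, 1 higher and 0 lower. The gene was Mir208b, a cardiac muscle miRNA named after its values were seen. The spread was estimated from the same 2 libraries, so few calls were likely from the outset. With filters of 1 count, Mir146b entered the test and did not pass (adjusted exact binomial p = 0.622 and 0.669). The share of the 5 genes among all counts was 0.970% with gene-strand counts, 0.829% with counts of both strands and 1.04% without the most abundant gene, as these change the total. From either library alone, this share was 0.937% and 1.00%, the activation group was 42.4% and 48.9% of the counts of the 5 genes, and its ratio to the maturation pair was 0.736 and 0.957. The nearest gene in level to each of the 4 was the same with a pseudocount of 0.5 CPM. No paired analysis was possible because both libraries belong to 1 group. Depth limits Mir146b most, with 5 counts in each library.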
